A study of Oryctolagus cuniculus with 24 samples.

Results

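MYC, its antagonists of the MXD family and 32 genes of ribosome biogenesis were followed in rabbit corneal keratocytes that had been turned towards myofibroblasts with TGF-β1, turned towards fibroblasts with serum, or kept in serum-free medium. The genes were taken by name from a list of 38. Of these, 36 were found among the 23428 genes of the count table, and 35 passed the filter on low counts that left 13308 genes to test. MYCN, a paralogue of MYC known from neural and embryonic cells, did not pass the filter. BOP1 is not analysed here, and NPM1 stands in the table under other names and is given separately.

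MYC is a transcription factor that binds DNA as a pair with MAX and is known for raising the output of ribosomes in growing cells. MXD4 and MXI1 also pair with MAX and repress at the same sites, so the MXD proteins are described as antagonists of MYC. Ribosome biogenesis starts in the nucleolus, where RNA polymerase I makes the precursor of ribosomal RNA, snoRNPs (RNA-protein particles) modify it, and a large set of assembly factors folds and trims it into the small and the large subunit. Quiescent keratocytes of the corneal stroma divide rarely, and serum is a classical stimulus for division and growth in culture.

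All 24 libraries came from primary rabbit keratocytes of the first passage, plated on collagen-coated glass in serum-free medium and kept for 6 days. The TGF-β1 libraries (n = 8) received 5 ng/mL of the cytokine in serum-free medium from day 1, the FBS libraries (n = 8) received DMEM with 10% fetal bovine serum from day 3, and the serum-free libraries (n = 8) received the defined medium throughout. The FBS cultures therefore also had another base medium, and fewer days of treatment, than the TGF-β1 cultures. Whether replicates are separate animals or dishes is not labelled, so the p-values measure the spread between these libraries, which may be technical. The libraries carry numbers 5 to 8 (replicates 1 to 4, called set 1) and 9 to 12 (replicates 5 to 8, called set 2).

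Total counts per library were 15410285 to 20911192 with TGF-β1, 15659561 to 22528261 with FBS and 17151397 to 21540864 in serum-free medium. The conditions separated on the first principal components (58.3% and 24.8% of the variance), and the sets separated on the third (5.75%). Among the FBS libraries, replicates 5 and 6 stood apart from replicates 7 and 8 of the same set. All 9 keratocyte markers were lower with TGF-β1 and with FBS than in serum-free medium (33.1% and 40.5% of all genes were). All 5 tested myofibroblast markers were higher with TGF-β1 (31.2% of all genes). With FBS 3 of them were higher and 2 lower (39.5% and 40.5% of all genes), and their summed level lay below that of every serum-free library. Of 8 leukocyte markers only CD68 passed the filter, the defining markers PTPRC, CD74 and TYROBP did not, MS4A1 had 0 counts in all libraries, and the list summed to 5.66 to 8.53 CPM (counts scaled to the size of the library) with TGF-β1, 11.4 to 25.8 CPM with FBS and 2.93 to 5.34 CPM in serum-free medium. Vascular endothelial markers, mostly KDR, summed to 52.1 to 113 CPM with TGF-β1, 13.8 to 19.0 CPM with FBS and 246 to 368 CPM in serum-free medium, glial and melanocyte markers to 17.6 CPM or less, and epithelial markers to 0.764 CPM or less. The part of such cells in the results was not tested. In bulk RNA, fewer cells of a type and less RNA per cell cannot be told apart.

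With FBS against serum-free medium, MYC and all 32 tested biogenesis genes rose and both MXD genes fell. The biogenesis genes rose by a median log2 fold change of 1.97, which is 3.93-fold. With TGF-β1 against serum-free medium the changes were smaller and mixed: MYC rose 2.46-fold, MXI1 fell, and of the 32 biogenesis genes 22 rose, 2 fell and 8 did not pass the test, with a median log2 fold change of 0.40. In the test, edgeR's quasi-likelihood F-test with Benjamini-Hochberg adjustment over all 13308 genes, a gene is called at an adjusted p under 0.05.

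These counts have to be read against the whole table. For FBS against serum-free medium, 39.5% of all genes tested were called higher and 40.5% lower, with a median log2 fold change of -0.04, while 33 of the 35 genes followed here were called higher and 2 lower. In the comparison of TGF-β1 with serum-free medium, 31.2% of all genes passed upwards and 33.1% downwards, with a median of -0.03, and of the 35 genes 23 passed upwards and 3 downwards. At least 2-fold rises were made by 31 of the 35 genes with FBS, against 22.3% of all genes, and by MYC and WDR12 alone with TGF-β1, against 10.9% of all genes. At least 2-fold falls were made by MXD4 and MXI1 with FBS (24.2% of all genes) and by MXI1 with TGF-β1 (15.2% of all genes). Both comparisons use the same serum-free libraries, so they are not independent of each other.

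**Figure D1:**
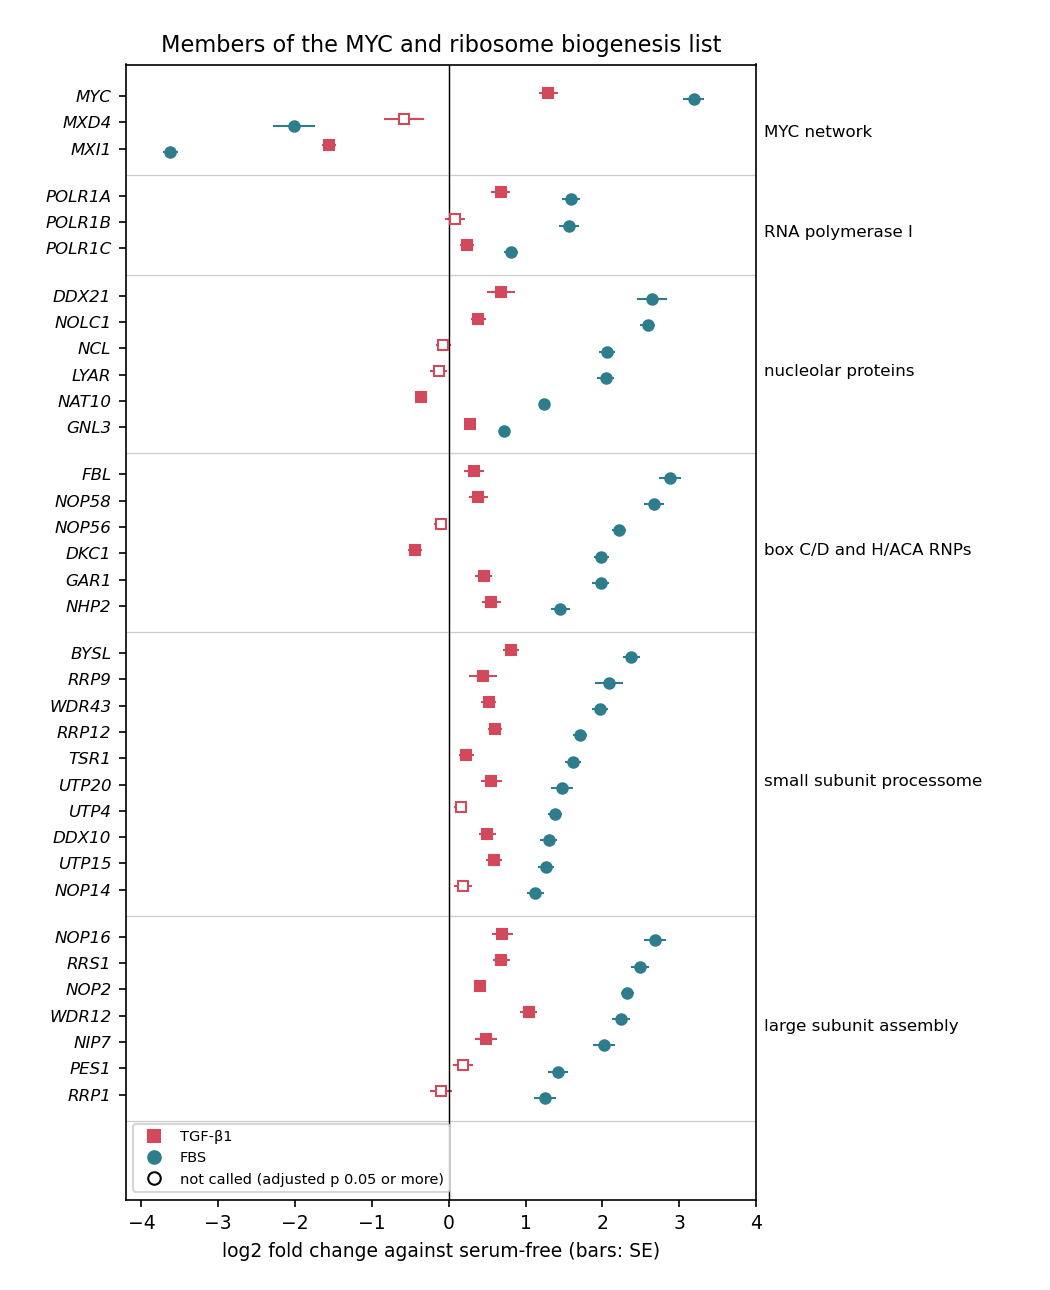
Log2 fold changes against serum-free medium (x axis) of the 35 genes tested, by role, for TGF-β1 (squares) and FBS (circles); bars are standard errors and open symbols were not called. Every FBS value of a biogenesis gene lies to the right of 0, between 0.71 and 2.88, and the TGF-β1 values lie between -0.44 and 1.04.

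MYC itself (chr3:143523861-143528653, plus strand, positions as the count table gives them, with no genome build named) had 35.8, 45.2 and 49.3 CPM as the lowest, median and highest of the TGF-β1 libraries. In FBS the same values were 138, 157 and 190.1 CPM, and in serum-free medium 11.3, 17.95 and 24.7 CPM. The 3 conditions did not overlap in any library, with FBS highest and serum-free medium lowest. MYC rose by a log2 fold change of 1.30 with TGF-β1 (SE 0.13, edgeR adjusted p = 1.83e-09) and of 3.19 with FBS (SE 0.14, adjusted p = 2.17e-17), or 9.12-fold. In FPKM, fragments per kilobase of gene length scaled to the library, MYC averaged 18.6 ± 2.31 FPKM with TGF-β1, 68.8 ± 8.40 FPKM with FBS and 7.55 ± 1.94 FPKM in serum-free medium (SD, n = 8 each). MYCN had 10 counts over the 8 TGF-β1 libraries, 10 counts over the 8 FBS libraries and 0 counts over the serum-free libraries, where 0 allows up to 0.0196 CPM (3 counts over the 8 libraries, counting error only). Without the filter on low counts, edgeR called MYCN higher with TGF-β1 (adjusted p = 0.0132) and with FBS (adjusted p = 0.0168), and DESeq2 called neither (adjusted p = 0.104 and 0.157), so these few counts gave no firm answer.

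MXI1 (chr18:57863934-57937404, plus strand) went the other way from MYC in both treatments. Its lowest, median and highest values were 16.02, 18.3 and 24.1 CPM with TGF-β1, 3.91, 4.51 and 5.13 CPM with FBS and 51.7, 53.8 and 71.4 CPM in serum-free medium. No library of a condition reached into another. MXI1 fell by 1.56 on the log2 scale with TGF-β1 (SE 0.09, edgeR adjusted p = 2.86e-14) and by 3.62 with FBS (SE 0.10, adjusted p = 2.39e-21), and it was the member with the deepest fall in both.

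MXD4 (unplaced scaffold Un0098, positions 325248 to 337452, minus strand) had 74.8, 89.9 and 105 CPM as the lowest, median and highest of the TGF-β1 libraries, 12.8, 29.3 and 61.3 CPM with FBS, and 97.4, 133 and 158 CPM in serum-free medium. All FBS libraries lay below all others, and TGF-β1 replicates 5 and 6 lay above serum-free replicate 1. MXD4 fell with FBS by 2.01 on the log2 scale (SE 0.27, edgeR adjusted p = 1.74e-07). The fall was deeper in set 1 (2.99 on the log2 scale, with FBS libraries at 12.8 to 18.03 CPM) than in set 2 (1.52, with FBS libraries at 40.7 to 61.3 CPM), and this difference between the sets passed the edgeR interaction test (adjusted p = 9.00e-07). With TGF-β1 the log2 fold change of MXD4 was -0.58 (SE 0.26) and missed the threshold (adjusted p = 0.0536). It passed in 17 of 38 alternatives and missed in the other 21, with an adjusted p of 0.458 on counts summed per condition and set. Among those it passed were the fit with the replicate number as a block (adjusted p = 0.0175), each set alone (log2 fold changes of -0.55 and -0.60), and the fits without serum-free replicate 1 (adjusted p = 0.0424) or any 1 of FBS replicates 1 to 6 (adjusted p = 0.0347 to 0.0481).

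**Figure D2:**
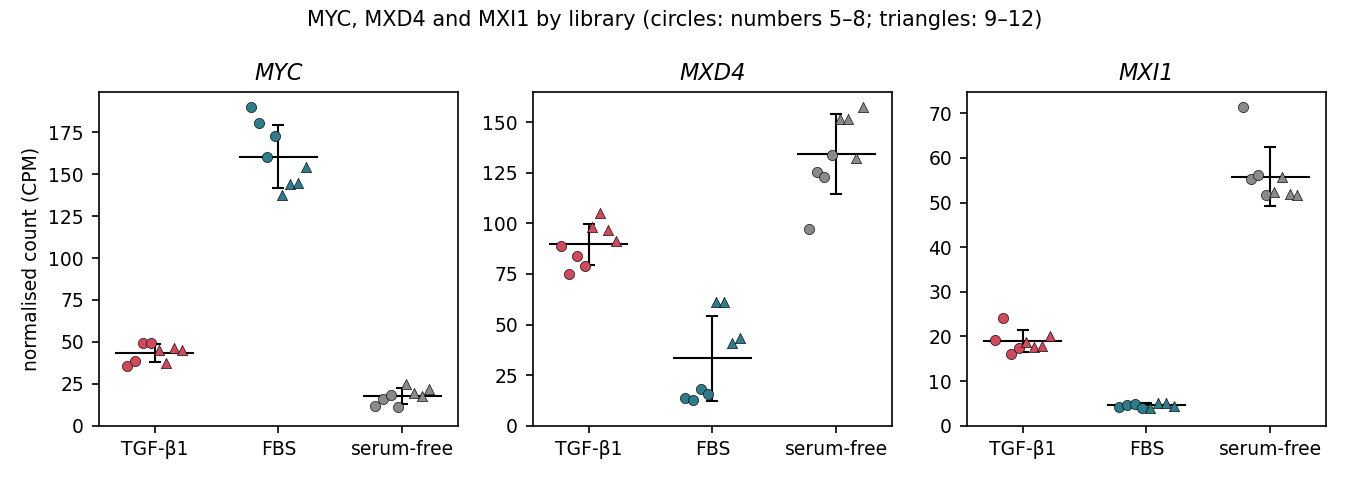
Normalised counts (CPM, y axis) of MYC, MXD4 and MXI1 in each library of the 3 conditions (x axis); circles are library numbers 5 to 8, triangles 9 to 12, lines the mean and bars the SD of 8 libraries. MYC is highest with FBS (138 to 190.1 CPM), MXI1 is highest in serum-free medium (51.7 to 71.4 CPM), and MXD4 with FBS splits by set (12.8 to 18.03 and 40.7 to 61.3 CPM).

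The balance of MYC to the MXD genes was followed as the ratio of FPKM of MYC to the sum of MXD4 and MXI1. The ratio was 0.431 to 0.710 in the TGF-β1 libraries, 3.15 to 14.5 in the FBS libraries and 0.0801 to 0.161 in the serum-free libraries. In FPKM, MYC thus exceeded both antagonists together in all 8 FBS libraries and in none of the 16 others. MAX, the shared partner, fell with FBS by 0.67 on the log2 scale (edgeR adjusted p = 1.05e-07), with 68.5 ± 4.44 CPM in FBS and 109 ± 15.1 CPM in serum-free medium (SD, n = 8 each). Of 17 tested MAX network and MYC turnover genes, 3 rose and 5 fell with TGF-β1 (median log2 fold change -0.20), and 6 rose and 7 fell with FBS (median 0.11). With FBS both counts were near the shares of all genes (39.5% higher and 40.5% lower), and with TGF-β1 both were below them (31.2% and 33.1%). MNT, another MAX-binding repressor, fell with FBS (log2 fold change -0.80), whereas MXD3, the MXD gene linked to dividing cells, rose 6.91-fold to 7.33 ± 2.28 CPM, against 1.05 ± 0.435 CPM in serum-free medium. SKP2, a ubiquitin ligase subunit that acts on MYC and in the cell cycle, fell with TGF-β1 by 1.59 on the log2 scale, and MXD1 rose by 0.63.

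Among the 32 biogenesis genes, the summed level was 1411 to 1551 CPM in the TGF-β1 libraries, 3933 to 5548 CPM in the FBS libraries and 1173 to 1302 CPM in the serum-free libraries. The sums did not overlap between conditions. With FBS all 33 called-higher genes had every library above every serum-free library (27.2% of all genes tested did), and both MXD genes had every library below (25.7% of all genes). With TGF-β1, 14 of the 35 genes had every library above the serum-free libraries (17.3% of all genes) and 2 had every library below (16.5%), while 19 overlapped.

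The TGF-β1 calls were the less firm ones. The median log2 fold change of the biogenesis genes was 0.45 in set 1 and 0.33 in set 2. Of the 26 genes called with TGF-β1, POLR1C and FBL were not called in set 2 alone (adjusted p = 0.542 and 0.139 in edgeR) and RRP9 in neither set (0.0522 and 0.123). With counts summed per condition and set, which leaves 2 summed libraries a condition, MYC, BYSL, WDR12 and RRS1 were called higher and MXI1 lower. Scaling by total count alone, which moved the median log2 fold change of all genes to -0.17, gave 17 genes higher and 6 lower.

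**Figure D3:**
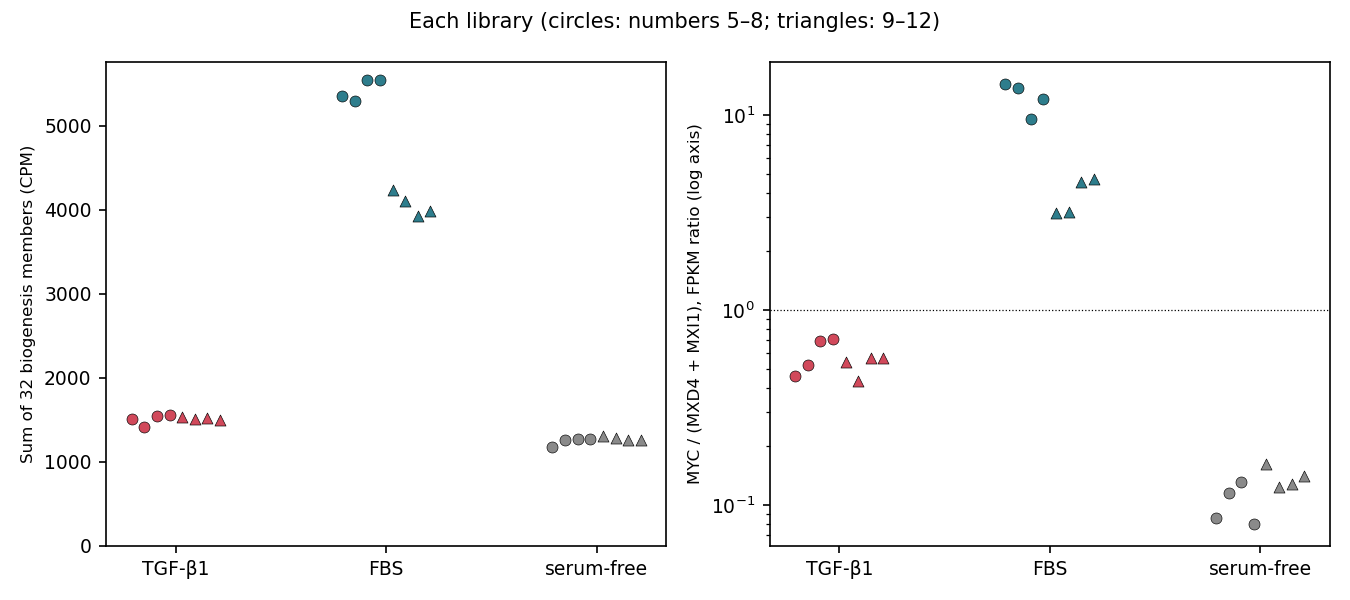
Left, summed CPM of the 32 biogenesis genes in each library; right, FPKM ratio of MYC to MXD4 plus MXI1 on a log axis. In both panels the FBS libraries are highest (3933 to 5548 CPM; 3.15 to 14.5), the TGF-β1 libraries lie between (1411 to 1551 CPM; 0.431 to 0.710) and the serum-free libraries are lowest (1173 to 1302 CPM; 0.0801 to 0.161).

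RNA polymerase I was followed through its catalytic subunits POLR1A and POLR1B and through POLR1C, which it shares with RNA polymerase III. POLR1A had 43.8, 50.6 and 54.3 CPM as the lowest, median and highest with TGF-β1, 64.2, 97.7 and 122 CPM with FBS and 23.4, 31.0 and 38.3 CPM in serum-free medium, without overlap. POLR1B had 24.4, 25.4 and 28.5 CPM with TGF-β1, 46.9, 73.6 and 95.1 CPM with FBS and 19.8, 23.3 and 31.4 CPM in serum-free medium, so that the TGF-β1 libraries lay within the serum-free range. POLR1A rose with TGF-β1 (log2 fold change 0.68, SE 0.12, edgeR adjusted p = 2.77e-05) and POLR1B gave 0.08 (SE 0.13, adjusted p = 0.610). In set 1 alone POLR1B was called higher (0.27, edgeR adjusted p = 0.00634), and in set 2 alone it gave -0.092 (adjusted p = 0.504). With FBS, POLR1A, POLR1B and POLR1C rose by log2 fold changes of 1.59, 1.57 and 0.81. The FPKM ratio of POLR1B to POLR1A, the catalytic pair, averaged 0.911 ± 0.082 with TGF-β1, 1.34 ± 0.116 with FBS and 1.38 ± 0.175 in serum-free medium (SD, n = 8 each). The 3 subunits had the set-by-treatment term called in FBS against serum-free medium (22.4% of all genes tested did). POLR1B for example rose by 2.04 in set 1 and 1.03 in set 2. POLR1C had 22.9, 25.3 and 28.8 CPM with TGF-β1, 31.98, 38.7 and 41.9 CPM with FBS and 17.4, 21.2 and 28.5 CPM in serum-free medium, so that only the FBS libraries stood clear. It rose with TGF-β1 by 0.24 (edgeR adjusted p = 0.0231), a call lost without serum-free replicate 2 (adjusted p = 0.0557) or 4 (0.0525).

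Of 12 further genes of RNA polymerase I and its factors, 10 rose and 2 fell with FBS (median log2 fold change 0.98). The shares of all genes with FBS were 39.5% higher and 40.5% lower. With TGF-β1, 4 rose and 3 fell (median 0.09), near the shares of all genes (31.2% higher and 33.1% lower). POLR1D, another subunit shared with RNA polymerase III, rose by 0.78 with TGF-β1 and 1.78 with FBS. TAF1B, a subunit of the promoter-binding factor SL1, fell by 0.68 with TGF-β1 and 0.75 with FBS. TTF1, the termination factor, fell by 0.50 with TGF-β1 and 0.85 with FBS.

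All 6 nucleolar proteins rose with FBS (median log2 fold change 2.05), against 39.5% of all genes. With TGF-β1, 3 rose, 1 fell and 2 were not called (median 0.10), where 31.2% of all genes rose and 33.1% fell. Nucleolin (NCL), an RNA-binding protein of the nucleolus, had the highest FPKM of the 36 genes, which do not include NPM1, in each condition. It averaged 111 ± 7.37 FPKM with TGF-β1, 486 ± 94.8 FPKM with FBS and 117 ± 11.8 FPKM in serum-free medium (SD, n = 8 each). Its counts were 248, 287 and 309 CPM as the lowest, median and highest with TGF-β1, 979, 1236 and 1504 CPM with FBS and 268, 284 and 341 CPM in serum-free medium. The FBS libraries stood far above the rest, and TGF-β1 and serum-free libraries overlapped in part, with serum-free replicates 2, 3 and 4 above every TGF-β1 library. NCL rose with FBS by 2.06 (SE 0.10, edgeR adjusted p = 3.47e-16) and gave -0.07 with TGF-β1 (SE 0.10, adjusted p = 0.541). A short gene described as nucleolin in the table took 1.09% to 5.33% of the counts of both in all libraries, and reads cannot be assigned between them with certainty.

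DDX21, an RNA helicase of the nucleolus, had 80.4, 93.8 and 107 CPM as the lowest, median and highest with TGF-β1, 172, 382 and 505 CPM with FBS, and 45.6, 58.5 and 73.8 CPM in serum-free medium. The conditions did not overlap. DDX21 rose by 0.68 with TGF-β1 (SE 0.19, edgeR adjusted p = 0.00242) and by 2.65 with FBS (SE 0.20, adjusted p = 1.91e-12). Its FBS libraries split by set, at 477 to 505 CPM in set 1 and 172 to 288 CPM in set 2. The rise with FBS was 2.95 in set 1 and 2.18 in set 2 (edgeR interaction test, adjusted p = 0.00225). NOLC1, a chaperone of snoRNPs, rose by 0.39 with TGF-β1 and 2.59 with FBS, and LYAR, a zinc finger protein, gave -0.13 with TGF-β1 (not called) and rose by 2.05 with FBS. GNL3 (nucleostemin, a nucleolar GTP-binding protein) rose by 0.28 with TGF-β1 and 0.71 with FBS, the lowest rise of a member with FBS. NAT10, the acetyltransferase of small subunit rRNA, had 30.4, 33.1 and 36.3 CPM with TGF-β1, 86.6, 103 and 113 CPM with FBS and 41.5, 42.4 and 45.2 CPM in serum-free medium, again without overlap. It fell with TGF-β1 by 0.36 (SE 0.07, edgeR adjusted p = 5.53e-05) and rose with FBS by 1.24 (SE 0.07, adjusted p = 4.48e-15), so it was called in opposite directions in the treatments.

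Nucleophosmin (NPM1), a chaperone of the granular part of the nucleolus, stands in the table as a gene on chromosome 3 (52619487 to 52633520, plus strand) and a gene on chromosome 5 (18411950 to 18412891, minus strand). The gene on chromosome 5 has a counted length of 942 bases, which is its whole span, and reads of the pair cannot be told apart with certainty. Its median share of the counts of both was 10.7% in the TGF-β1 libraries, 10.4% in the FBS libraries and 10.5% in the serum-free libraries. NPM1 on chromosome 3 had 141, 161 and 196 CPM as the lowest, median and highest with TGF-β1, 1096, 1245 and 1403 CPM with FBS and 74.8, 90.2 and 98.5 CPM in serum-free medium. The conditions did not overlap. It rose by 0.88 with TGF-β1 (SE 0.08, edgeR adjusted p = 4.90e-10) and by 3.80 with FBS (SE 0.09, adjusted p = 3.94e-22), or 13.9-fold. In FPKM, NPM1 on chromosome 3 averaged 122 ± 13.9 with TGF-β1, 926 ± 99.9 with FBS and 66.5 ± 5.61 in serum-free medium (SD, n = 8 each). These means lay above those of NCL with TGF-β1 and with FBS, and below in serum-free medium. Neither NPM1 entry is among the 35 genes counted above.

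The snoRNP proteins fall into box C/D particles, which guide methylation of ribosomal RNA, and box H/ACA particles, which guide its pseudouridylation. All 6 rose with FBS, by log2 fold changes of 1.45 to 2.88, against 39.5% of all genes. With TGF-β1, 4 rose, 1 fell and 1 was not called, where 31.2% of all genes rose and 33.1% fell. Fibrillarin (FBL), the methyltransferase of box C/D particles, had 24.5, 32.7 and 39.7 CPM as the lowest, median and highest with TGF-β1, 147, 174 and 241 CPM with FBS and 15.5, 25.1 and 35.8 CPM in serum-free medium. TGF-β1 and serum-free libraries overlapped, and the FBS libraries lay above both. FBL rose with FBS by 2.88 (SE 0.14, edgeR adjusted p = 4.30e-16), the largest rise of the 32 biogenesis genes. With TGF-β1 it gave 0.33 (SE 0.13, adjusted p = 0.0341), a call lost without any of serum-free replicates 1, 2 and 3 (adjusted p = 0.0745, 0.0593 and 0.0682) and TGF-β1 replicates 5, 6 and 8 (0.0511, 0.0760 and 0.0520).

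NOP56 and NOP58, the paired core proteins of box C/D particles, rose with FBS by 2.22 and 2.67. With TGF-β1, NOP58 rose by 0.39 (edgeR adjusted p = 0.00684) and NOP56 gave -0.10 (adjusted p = 0.280). With scaling by total count NOP58 was not called (0.25, edgeR adjusted p = 0.0577) and NOP56 was called lower (-0.24, adjusted p = 0.0137). The FPKM ratio of NOP56 to NOP58 was 0.983 ± 0.133 with TGF-β1, 1.00 ± 0.126 with FBS and 1.39 ± 0.220 in serum-free medium (SD, n = 8 each). The ranges overlapped, at 0.777 to 1.20, 0.866 to 1.20 and 1.07 to 1.63 in the same order.

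Dyskerin (DKC1), the pseudouridine synthase of box H/ACA particles, had 14.4, 18.4 and 20.9 CPM as the lowest, median and highest with TGF-β1, 80.3, 99.5 and 117 CPM with FBS and 20.1, 25.3 and 27.9 CPM in serum-free medium. The FBS libraries lay above the rest, and TGF-β1 replicates 4 and 6 reached into the lower end of the serum-free range. DKC1 fell with TGF-β1 by 0.44 (SE 0.10, edgeR adjusted p = 2.73e-04) and rose with FBS by 1.99 (SE 0.10, adjusted p = 3.58e-16). Its partners GAR1 and NHP2 rose in both treatments, by 0.45 and 0.56 with TGF-β1 and by 1.98 and 1.45 with FBS. The FPKM ratio of DKC1 to NHP2 was 0.137 to 0.173 in TGF-β1 libraries, 0.297 to 0.639 in FBS libraries and 0.241 to 0.367 in serum-free libraries, so the TGF-β1 libraries lay apart from both other conditions. The ratio of DKC1 to GAR1 gave the same split, with 0.448 to 0.566, 0.749 to 1.09 and 0.707 to 1.10 in TGF-β1, FBS and serum-free libraries.

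**Figure D4:**
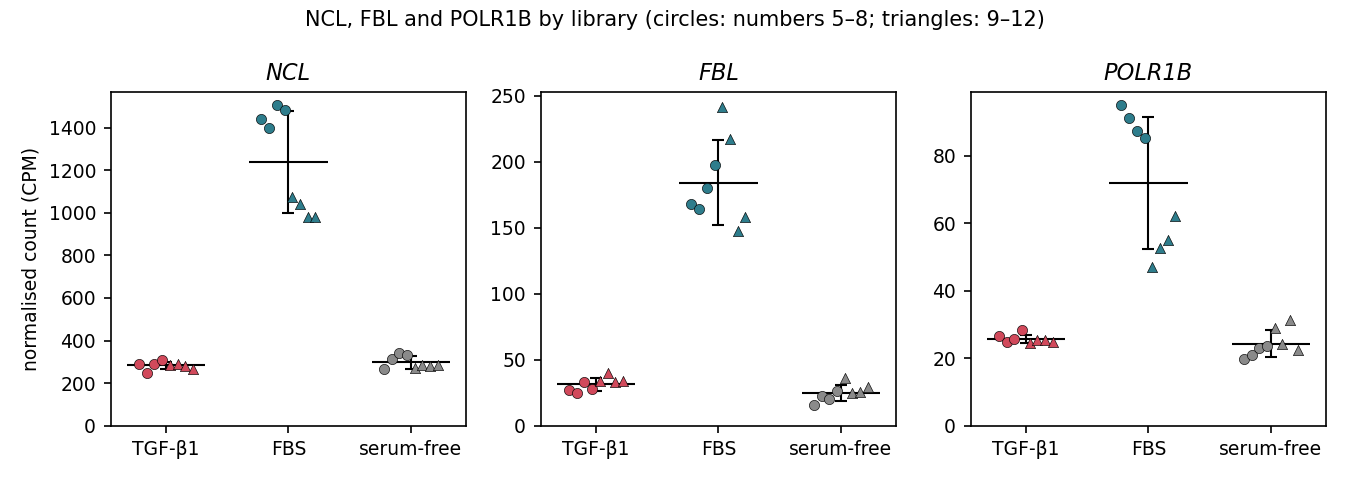
Normalised counts (CPM, y axis) of NCL, FBL and POLR1B in each library of the 3 conditions (x axis); circles are library numbers 5 to 8, triangles 9 to 12, lines the mean and bars the SD of 8 libraries. FBS libraries lie above all others in each panel, TGF-β1 and serum-free libraries overlap, and the FBS sets separate for NCL (1397 to 1504 and 979 to 1075 CPM) and POLR1B (85.1 to 95.1 and 46.9 to 62.2 CPM) but overlap for FBL.

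The small subunit processome, the particle that folds and cleaves the precursor towards the small subunit, was represented by 10 genes. All 10 rose with FBS (median log2 fold change 1.55), against 39.5% of all genes. With TGF-β1, 8 rose and 2 were not called (median 0.51), where 31.2% of all genes rose. Bystin (BYSL), a late small subunit factor, had 11.99, 15.1 and 17.7 CPM as the lowest, median and highest with TGF-β1, 33.2, 45.7 and 51.4 CPM with FBS and 6.78, 8.69 and 9.998 CPM in serum-free medium, with no overlap. It rose by 0.81 with TGF-β1 (SE 0.10, edgeR adjusted p = 1.95e-07) and by 2.38 with FBS (SE 0.11, adjusted p = 5.53e-17). RRP9, which binds the snoRNA of the processome, rose by 2.08 with FBS, WDR43 by 1.97 and RRP12, a HEAT-repeat factor of maturation and export, by 1.71. NOP14, a processome subunit, was the lowest of the group with 1.13.

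With TGF-β1, RRP12 rose by 0.60, the processome proteins UTP15 by 0.59, UTP20 by 0.56 and WDR43 by 0.52 and DDX10, an RNA helicase, by 0.50. For each of these 5, as for BYSL, every TGF-β1 library lay above every serum-free library (17.3% of all genes tested did so). UTP4 and NOP14 were not called (0.15 and 0.19). UTP4 passed in set 1 alone (0.24, edgeR adjusted p = 0.00289) and with only the 16 libraries of the comparison (adjusted p = 0.0463). NOP14 passed with the replicate block (edgeR adjusted p = 0.0315) and without serum-free replicate 5 (0.0443).

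Calls of TSR1 and RRP9 with TGF-β1 were the least firm of the group. TSR1, a GTPase-like late factor, gave 0.23 (edgeR adjusted p = 0.0482), lost on leaving out any of serum-free replicates 2 to 8 or TGF-β1 replicates 1 to 4 and 8 (adjusted p = 0.0546 to 0.0910). RRP9 gave 0.44 (adjusted p = 0.0354), lost without serum-free replicate 2 or 7 (0.0592 and 0.0609) or TGF-β1 replicate 4 or 5 (0.0648 and 0.0663). Both rose with FBS in every alternative tried.

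Large subunit assembly was followed through 7 genes. All 7 rose at least 2-fold with FBS (median log2 fold change 2.25), against 22.3% of all genes. With TGF-β1, 5 rose and 2 were not called (median 0.49), where 31.2% of all genes rose. WDR12 and PES1 belong to the PeBoW complex, which processes the precursor of large subunit rRNA. WDR12 had 27.9, 36.3 and 41.8 CPM as the lowest, median and highest with TGF-β1, 62.9, 82.8 and 98.1 CPM with FBS and 14.9, 16.4 and 23.2 CPM in serum-free medium. There was no overlap, and WDR12 rose by 1.04 with TGF-β1 (SE 0.11, edgeR adjusted p = 6.29e-09) and by 2.25 with FBS (SE 0.11, adjusted p = 7.31e-16). PES1 rose by 1.43 with FBS and gave 0.19 with TGF-β1 (adjusted p = 0.205), which passed with the replicate block (adjusted p = 0.0435) and in set 1 alone (0.28, adjusted p = 0.0422). The FPKM ratio of WDR12 to PES1 averaged 0.731 ± 0.218 with TGF-β1, 0.705 ± 0.178 with FBS and 0.410 ± 0.138 in serum-free medium (SD, n = 8 each). The ranges overlapped, at 0.469 to 1.08, 0.446 to 0.952 and 0.275 to 0.693 in the same order. With TGF-β1 and in serum-free medium, every set 1 library lay above every set 2 library.

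NOP16, an assembly factor, rose by 0.70 with TGF-β1 and 2.69 with FBS, and RRS1, another large subunit factor, rose by 0.69 with TGF-β1 and 2.49 with FBS. NOP2, an rRNA methyltransferase, rose by 0.40 with TGF-β1 and 2.33 with FBS. NIP7, which acts in rRNA processing, rose by 0.49 with TGF-β1 and 2.02 with FBS. RRP1 gave -0.10 with TGF-β1, which was not called, and rose by 1.26 with FBS.

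Set directly against FBS, TGF-β1 libraries had 33 of the 35 genes lower and MXD4 and MXI1 higher (36.4% of all genes tested were called lower and 36.9% higher). The median log2 fold change of the 32 biogenesis genes was -1.51, against 0.01 over all genes tested. For 32 of the 35 genes every TGF-β1 library lay below every FBS library (23.8% of all genes). UTP20 was the exception among the lower genes. The largest differences were those of FBL (-2.55), DKC1 (-2.43), NOP56 (-2.32) and NOP58 (-2.28), and the smallest that of GNL3 (-0.44). MYC was lower by 1.89 on the log2 scale, while MXI1 and MXD4 were higher by 2.06 and 1.43.

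Other genes of ribosome biogenesis, outside the 38, were also measured. In 5 lists with 130 tested genes (polymerase I factors, processome, large subunit, snoRNP and exosome genes), 124 rose and 4 fell with FBS, with a median log2 fold change of 1.18. With TGF-β1, 64 rose and 13 fell, with a median of 0.26. Of all genes tested, 39.5% rose and 40.5% fell with FBS, and 31.2% rose and 33.1% fell with TGF-β1. With FBS, MRTO4, a large subunit factor, rose 5.17-fold, TMA16, another large subunit factor, 4.88-fold, and WDR46, a processome protein, 4.26-fold. RUVBL1 and RUVBL2, the ATPases that assemble snoRNPs, rose 5.00-fold and 5.02-fold with FBS. TSR2, a chaperone for a ribosomal protein, fell with FBS by 0.78 on the log2 scale and with TGF-β1 by 0.46. Rises with TGF-β1 included those of EXOSC5, an exosome subunit (2.07-fold), TAF1C, a subunit of SL1 (1.77-fold), the large subunit factors CCDC86 and NSA2 (1.77-fold and 1.76-fold), and the small subunit factors RIOK1 and UTP11 (1.76-fold and 1.75-fold). XPO1, the export receptor of both subunits, fell with TGF-β1 by 0.86, and PIH1D1, a snoRNP assembly factor, by 0.83.

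Of 28 genes outside the nucleolus that are commonly listed as MYC targets, 26 rose and 2 fell with FBS (median log2 fold change 1.99). With TGF-β1, 20 rose and 3 fell (median 0.47). The shares of all genes were 39.5% higher and 40.5% lower with FBS, and 31.2% and 33.1% with TGF-β1. CTPS1, which makes CTP, rose 8.16-fold and the chaperone HSPD1 7.26-fold with FBS. SHMT2, a mitochondrial enzyme of serine and folate metabolism, rose 2.70-fold with TGF-β1 and APEX1, a DNA repair enzyme, 2.36-fold. CCND2 (cyclin D2) and LDHA (lactate dehydrogenase), also on such lists, fell with FBS by 1.61 and 2.09 on the log2 scale and with TGF-β1 by 1.19 and 0.39.

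All 20 mitotic genes rose with FBS (median log2 fold change 5.44), against 39.5% of all genes. Their summed levels were 2403 to 3669 CPM in FBS libraries and 28.3 to 157 CPM in serum-free libraries. With TGF-β1 7 of the 20 fell and 13 were not called (median -0.82), a share of falls near the 33.1% of all genes. In set 1 the sums were 45.7 to 71.1 CPM with TGF-β1 and 72.2 to 157 CPM in serum-free medium, without overlap. In set 2 they were 34.6 to 36.5 CPM with TGF-β1 and 28.3 to 35.6 CPM in serum-free medium, so the TGF-β1 libraries were not the lower ones there. Of 16 tested p53 targets, 14 rose and 2 were not called with TGF-β1, where 31.2% of all genes rose. CDKN1A, a cell cycle inhibitor, led them (10.1-fold). With FBS 9 rose and 5 fell, against 39.5% and 40.5% of all genes. The part of cell division in the biogenesis values was not tested.

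The size of the FBS response differed between the sets of libraries. Biogenesis genes rose with FBS by a median log2 fold change of 2.23 in set 1 and 1.65 in set 2, and the edgeR set-by-treatment term was called for 21 of the 35 genes (22.4% of all genes tested). For TGF-β1 against FBS it was called for 18 of 35 (23.9% of all genes), and in the comparison of TGF-β1 with serum-free medium, where 10.3% of all genes had it called, its smallest adjusted p was that of MYC (0.0597). All 35 calls with FBS kept their direction and passed in each set. Within FBS, 22 of the 32 biogenesis genes had every library of set 2 below every library of set 1. The share of all genes that did so is not given here. The median log2 ratio of set 2 to set 1 was -0.35 with FBS, -0.02 with TGF-β1 and 0.18 in serum-free medium. Over all genes this median was 0.0021, -0.019 and 0.015 in the same order. The summed level in FBS was 3933 to 4242 CPM in set 2 and 5299 to 5548 CPM in set 1.

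**Figure D5:**
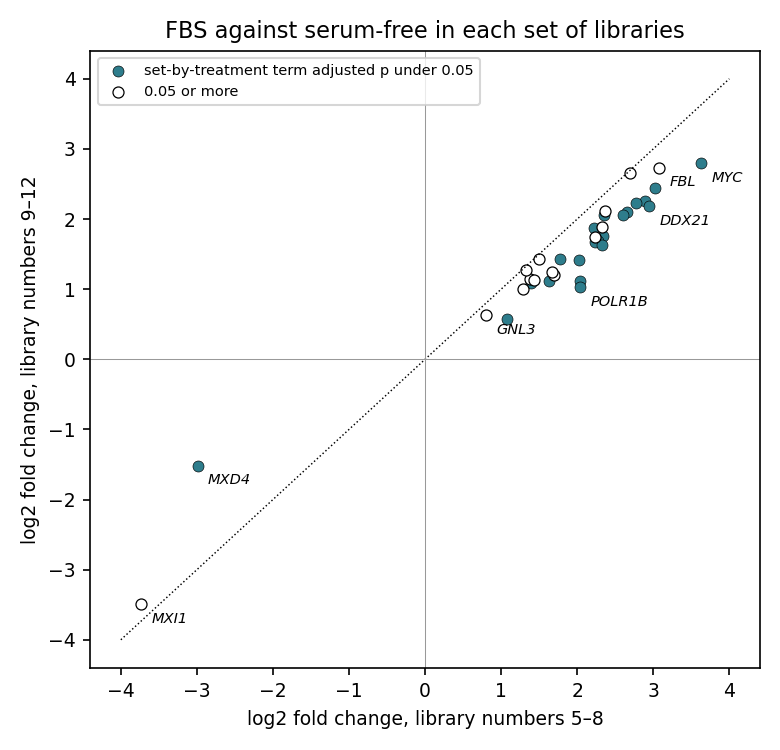
Log2 fold change of FBS against serum-free medium in library numbers 5 to 8 (x axis) and 9 to 12 (y axis) for the 35 genes; filled points had a set-by-treatment term with an adjusted p under 0.05, and the dotted line marks equal values. Most points lie below the line on the right, such as MYC at 3.62 and 2.80, and MXD4 lies above it on the left at -2.99 and -1.52.

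Gene length moved with part of the set difference. Across the 32 biogenesis genes (782 to 9034 bases), the log2 ratio of FBS replicates 5 and 6 to replicates 7 and 8 had a Spearman correlation with length of -0.75, from 0.75 for RRP1 to -0.70 for UTP20. The ratio of set 2 to set 1 within FBS correlated with length at -0.62, that of replicates 5 and 6 to set 1 at -0.69 and that of replicates 7 and 8 to set 1 at -0.27. In replicates 7 and 8, 31 of 32 genes were lower than in set 1, and the share of all genes is not given here. These correlations run across genes of shared libraries and are descriptive. The fold changes of FBS against serum-free medium correlated with length at -0.17 and those of TGF-β1 at -0.02. The part of length in the results was not tested. Without FBS replicates 5 and 6, all 33 rises and both falls with FBS were called.

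In the deposited coordinates, 30 of the 36 genes lay on 13 chromosomes and 6 on unplaced scaffolds. Neighbours within 1000 kb were UTP4 and NIP7 (160819 bases apart), NOP58 and WDR12 (501604), RRP9 and GNL3 (666040) and MXD4 and NOP14 (530671). Members of a pair did not always share a response: MXD4 fell and NOP14 rose with FBS, and RRP9 rose 4.24-fold while GNL3 rose 1.64-fold.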

How the data were processed

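Gene counts and FPKM were deposited by the authors as tables of the whole series, per the file headers. The count values are whole read counts per gene without normalization, and the FPKM values are fragments per kilobase of gene length, scaled by the authors to a library size. Aligner, counter, genome build and annotation: not given in the sources used here. Members and the other lists were chosen with earlier results of these data known. Counts were filtered with filterByExpr, scaled by TMM and fitted in edgeR 4.0.16 (R 4.3.3) over all 24 libraries with 1 coefficient per condition. Comparisons are contrasts of that fit by quasi-likelihood F-test, Benjamini-Hochberg adjusted over 13308 genes, and called at an adjusted p under 0.05. The set-by-treatment term was tested in the same way. CPM use the TMM-scaled library size, and levels are compared between genes only in FPKM. The floor for a count of 0 is 3 counts over the group and covers counting error only. The fit was tested on simulated data with 200 genes changed and independent libraries. The simulation held no difference between sets, so it does not test the p-values where the sets differ. From each other list, up to 2 called genes each with the largest rise and the largest fall, and at least 5 CPM in the higher group, could be named.

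Replicate numbers are shared across conditions. Residuals of same-numbered libraries correlated at 0.177 to 0.362 for TGF-β1 and serum-free, 0.115 to 0.429 for FBS and serum-free and 0.103 to 0.332 for TGF-β1 and FBS. The residuals were taken from the mean of the condition, so libraries of the same set can correlate whatever their number. Whether same-numbered libraries are pairs was therefore not tested. An alternative fit took the replicate number as a block. Other alternatives were other scalings and filters, DESeq2 1.42.0, limma 3.58.1 on log2(FPKM + 0.1) or log2(FPKM + 1), each set alone, counts summed per condition and set, and leaving out each library.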

Additional observations from a re-analysis of the deposited data

Results flagged for a closer look

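Single serum-free libraries lay far from the other 7 of their condition for 5 genes, by a gap to the next library that exceeded Dixon's critical value of 0.526 of the range. Chance alone would mark about 1 in 20 groups, and 5 of 105 were marked here. MXI1 was 71.4 CPM in serum-free replicate 1, with the next library at 56.2 CPM. TSR1 was 63.7 CPM in serum-free replicate 1, with the next at 55.3 CPM. WDR12 was 23.2 CPM in serum-free replicate 1, with the next at 18.3 CPM. NOP56 was 43.8 CPM in serum-free replicate 7, with the next at 50.4 CPM. UTP4 was 45.1 CPM in serum-free replicate 7, with the next at 40.8 CPM. Without serum-free replicate 1 the calls of MXI1, WDR12 and TSR1 with TGF-β1 were kept, and without serum-free replicate 7 NOP56 and UTP4 were still not called.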

How the results depend on the processing

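For FBS against serum-free medium all 35 genes kept their direction and call in all 38 alternatives. For TGF-β1 against FBS 32 of 35 did, and all 35 outside the fit on counts summed per condition and set. For TGF-β1 against serum-free medium 21 of 35 did outside that fit and 6 with it. Leaving out a library gave, with TGF-β1 set against serum-free medium, 19 to 23 listed genes higher with 3 to 4 lower, and 4026 to 4292 of all genes higher and 4305 to 4566 lower. For FBS it gave 33 and 2 throughout, with 5228 to 5376 and 5261 to 5502 of all genes, and for TGF-β1 against FBS 2 and 33, with 4840 to 4995 and 4783 to 5003.

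Counts summed per condition and set leave 2 summed libraries a condition. For TGF-β1 against serum-free medium that fit called 1783 genes higher and 1830 lower, and 4 and 1 of the list. For TGF-β1 against FBS it called 2756 higher and 3175 lower, and 1 of the list higher. Scaling by total count alone moved the median log2 fold change of all genes to -0.17, 0.21 and -0.39 for TGF-β1 against serum-free medium, FBS against serum-free medium and TGF-β1 against FBS. It called 3215 genes higher and 5368 lower for the first, against 4155 and 4408, with 17 of the list higher and 6 lower, GNL3 and NOP58 among the lost calls (adjusted p = 0.0585 and 0.0577) and MXD4, LYAR and NOP56 newly called lower (0.0175, 0.0457 and 0.0137). It called 3131 higher and 6819 lower for the last, against 4917 and 4840. For FBS against serum-free medium it called 6219 higher and 4450 lower, against 5257 and 5386. The log2 fold change of POLR1B with TGF-β1 turned to -0.067 by total count and -0.092 in set 2 alone, against 0.27 and a call in set 1 alone, and that of NCL to 0.0086 in set 2 alone, the cause of which was not tested. With the replicate block, 25 listed genes were higher with TGF-β1 than in serum-free medium, and 4 lower, through MXD4, NOP14 and PES1. No other call of a listed gene changed. The few counts of MYCN limit what can be said of it: its calls differed between edgeR without a filter and DESeq2.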
